A study of Arabidopsis thaliana with 18 samples.

Results

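CSLA01 (AT4G16590), IRX15-L (AT5G67210) and CSLC04 (AT3G28180) are Arabidopsis thaliana genes for the synthesis of hemicelluloses, the matrix polysaccharides of the plant cell wall. They were picked by gene identifier, and each was measured by 1 probe set, a group of short probes summarised to a signal, paired with that gene alone. They are 3 of the 5689 genes tested. The choice followed earlier results of these data. CSLA01 had been named for its response to methyl jasmonate (MeJA) in Col, phyb and jaz10phyb plants, IRX15-L for its response in jaz10, and CSLC04 for its difference between phyb and Col control plants. Those comparisons are described below with no test, and so are comparisons that share arrays with them. A p-value is given only for arrays that had no part in naming the gene.

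Mannans, xyloglucans and xylans have different backbones, made by different protein families. Proteins of the CSLA family polymerise mannan and glucomannan backbones in the Golgi, and proteins of the CSLC family, CSLC04 among them, make the glucan backbone of xyloglucan, the main hemicellulose of growing walls in this species. IRX15-L and its close relative IRX15 are Golgi proteins needed for normal xylan in secondary walls such as those of xylem. Jasmonate is a wound and defence hormone, JAZ10 is a repressor of its signalling, and phytochrome B is a red-light receptor that restrains shade-induced elongation.

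RNA came from whole plants 4 weeks old, grown with 8 h of light a day at 22 °C. Wild-type Col-0 (labelled Col), the phytochrome B mutant phyb-9 (phyb), a jaz10 mutant and the jaz10phyB-9 double mutant (jaz10phyb) were sprayed with 250 µM MeJA or with a water mock (Control) and harvested 3 h later. Each sample pooled at least 4 plants, and each was hybridised to 1 single-colour Affymetrix Arabidopsis Gene 1.0 ST array, 3 arrays for each phyb group and 2 for each of the other groups, 18 in all. Nothing in the labels tells whether pools of the same group were grown or sprayed separately, so p-values measure only the spread between these samples, which may be technical.

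Differences are given on the scale of log2(signal + 1) with the standard error (SE) of a limma fit, and adjusted p-values are Benjamini-Hochberg values over the 5689 genes, called under 0.05. The genes tested reached a signal of 50 on at least 1 array, and all 3 genes passed. Where arrays of different groups are said not to overlap, this describes the signal of that gene. The share of all genes that separate in the same way was not counted. Array medians lay between 14.87 and 17.5. Of 26 marker genes listed for tissues, 3 were measured. The leaf gene RCA had a signal between 2827 and 3508 on the 18 arrays, the stomatal lineage gene FMA between 64.9 and 96.6, and the root hair gene EXPA7 between 4.8 and 6.9, although the labels give whole plants. PHYB and JAZ10 were not analysed here, so the genotype labels were not checked by those genes.

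The position of 2 phyb arrays went against their treatment label. To place each array, the centred log2 values of 465 genes higher and 369 genes lower after MeJA in Col (CSLA01, IRX15-L and CSLC04 left out) were averaged and the second average subtracted from the first, giving a MeJA score. This score was 0.619 on phyb Control 2, while phyb Control 1 and 3 scored -0.779 and -0.629. It was -0.69 on phyb MeJA 3, while phyb MeJA 1 and 2 scored 0.67 and 0.262. No array was relabelled. For the 3 genes, differences that rest on phyb are given for all 18 arrays and for the 16 without these. Since the phyb arrays also feed the spread that all groups share, the SE and p-values of the other genotypes differ between the fits while their differences do not.

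CSLA01 was low in control plants and high after MeJA in every genotype other than phyb as labelled. In Col its signal was 69.4 and 60.2 in the Control arrays and 1275 and 1445 in the MeJA arrays, means of 64.8 ± 6.56 and 1360 ± 120 (SD, n = 2 arrays each) and a ratio of 21. In jaz10 the Control arrays gave 50.6 and 164.7 and the MeJA arrays 1157 and 1196. In jaz10phyb they gave 155.5 and 159.9 in Control and 1045 and 934.8 after MeJA. In none of these genotypes did the Control and MeJA arrays overlap, and the lowest MeJA value was several times the highest Control value.

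In phyb the signal of CSLA01 was 98.2, 1174 and 91 in Control arrays 1 to 3 and 1096, 844.4 and 97.1 in MeJA arrays 1 to 3. The arrays phyb Control 2 and phyb MeJA 3 thus each lay with the other treatment, and the labelled groups overlapped. Without these arrays the means were 94.6 ± 5.04 in Control and 970 ± 178 after MeJA (SD, n = 2 arrays each), a ratio of 10.3.

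**Figure D1:**
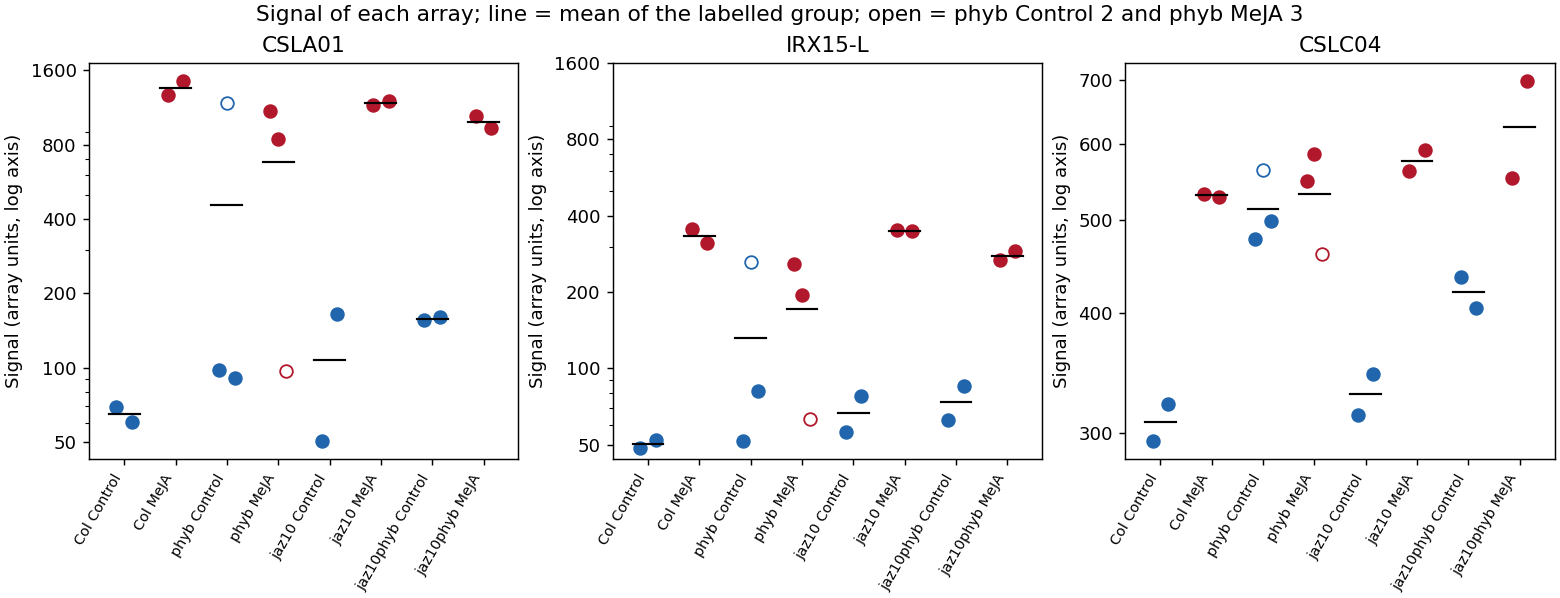
Signal of CSLA01, IRX15-L and CSLC04 on each of the 18 arrays by labelled group, on log axes whose range differs for CSLC04 (blue, Control; red, MeJA; black line, group mean; open symbols, phyb Control 2 and phyb MeJA 3). CSLA01 and IRX15-L separate Control from MeJA arrays apart from the open symbols, and the phyb and jaz10phyb Control arrays of CSLC04 lie above those of Col and jaz10.

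The jaz10 arrays had no part in naming CSLA01. There its difference was 3.67 ± 1.15 (SE, n = 2 arrays per group) with all 18 arrays, which did not pass in limma (adjusted p = 0.0593; 8.74% of all genes passed). It passed with 16 arrays (3.67 ± 0.35, limma adjusted p = 6.23e-06; 24.6% of genes passed) and in a limma fit of the 4 jaz10 arrays alone (adjusted p = 0.00217; 21.9% of genes passed), which holds no phyb array. The size rests partly on the Control arrays of jaz10, which differ among themselves: it was 4.51 without jaz10 Control 2 and 2.83 without jaz10 Control 1. In rank, 8 of the 5689 genes had a larger rise in jaz10.

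The MeJA difference of CSLA01 was 4.37 ± 1.15 in Col, 2.64 ± 1.15 in jaz10phyb and 1.03 ± 0.94 in phyb as labelled (18 arrays), and 3.33 ± 0.35 in phyb with 16 arrays. These comparisons named the gene and are given as a description. With 16 arrays the Control means ran from 64.8 in Col through 94.6 in phyb and 107.6 ± 80.7 in jaz10 (SD, n = 2) to 157.7 ± 3.12 in jaz10phyb (SD, n = 2). The Col and phyb Control arrays did not overlap, while the jaz10 arrays spanned those of the other genotypes. From high to low the MeJA means were 1360 in Col, 1176 ± 27.9 in jaz10 (SD, n = 2), 989.9 ± 78 in jaz10phyb (SD, n = 2) and 970 in phyb, where jaz10phyb lay within the range of the phyb arrays. The difference in response between phyb and Col was -3.34 ± 1.48 with 18 arrays and -1.04 ± 0.5 with 16. Between jaz10phyb and jaz10 it was -1.03 ± 1.62 with 18 arrays and -1.03 ± 0.5 with 16, and it was -1.87 without jaz10 Control 2 and -0.19 without jaz10 Control 1. These values share arrays with the choice of the gene and were not tested. Outside Col, whose arrays chose the genes of the MeJA score, the score of the Control arrays was -0.785 and -0.585 in jaz10 and -0.525 and -0.543 in jaz10phyb, and its part in the control level of CSLA01 was not tested. In whole plants, fewer cells with the transcript and less transcript per cell cannot be told apart.

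**Figure D2:**
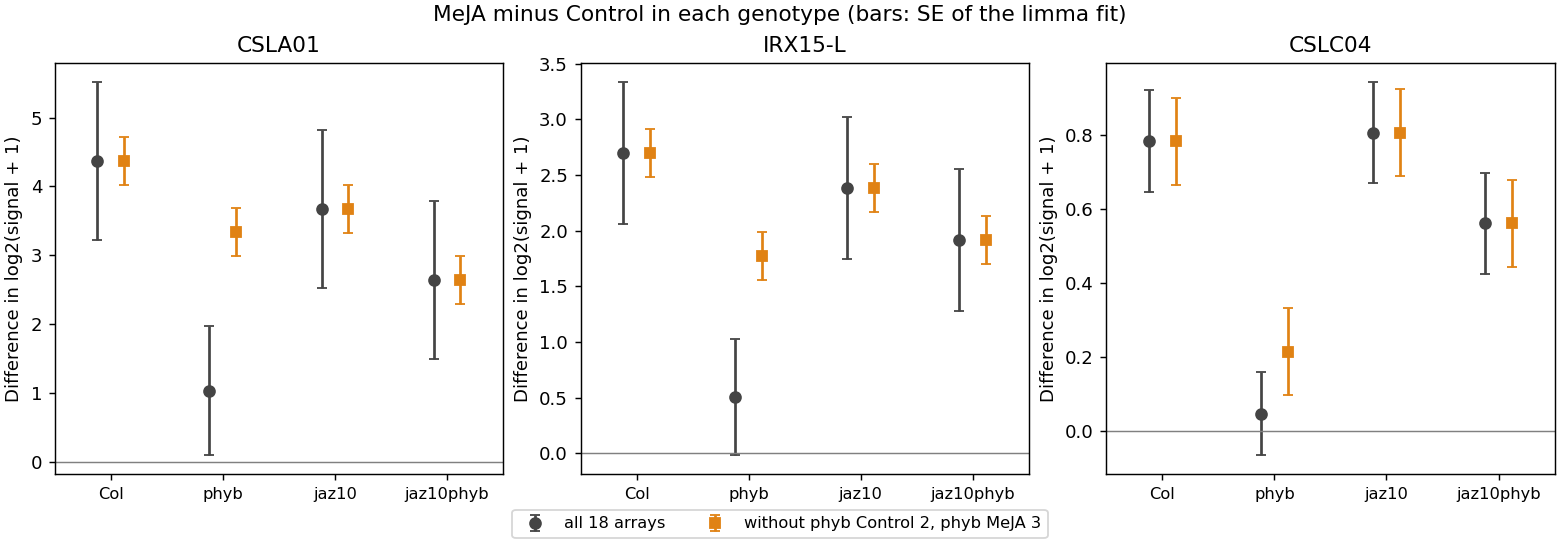
MeJA minus Control in log2(signal + 1) for CSLA01, IRX15-L and CSLC04 in each genotype, with the SE of the limma fit as bars (circles, all 18 arrays; squares, 16 arrays without phyb Control 2 and phyb MeJA 3). The phyb value of CSLA01 is 1.03 with all arrays and 3.33 without the 2 arrays. For IRX15-L and for CSLC04 the phyb value is the lowest of the 4 genotypes in both fits.

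IRX15-L followed the same course at a smaller size. Its signal in Col was 48.5 and 52.1 in the Control arrays and 353.3 and 311.2 in the MeJA arrays. In jaz10 it was 56 and 77.8 in Control and 349.8 and 347 after MeJA. In jaz10phyb it was 62.8 and 84.8 in Control and 266.3 and 290.6 after MeJA. The Control and MeJA arrays did not overlap in any of these genotypes.

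In phyb the signal of IRX15-L was 51.9, 261.9 and 81.5 in Control arrays 1 to 3 and 258.4, 194 and 63.2 in MeJA arrays 1 to 3. As for CSLA01, the second Control array and the third MeJA array lay with the other treatment. The related gene IRX15 had a signal between 3.3 and 6.92 on the 18 arrays, below the minimum for testing, in Control and MeJA arrays alike.

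In Col, whose arrays had no part in naming it, IRX15-L rose by 2.7 ± 0.64 after MeJA (SE, n = 2 arrays per group; limma adjusted p = 0.0295 with 18 arrays, where 14.7% of genes passed). The call held with 16 arrays (limma adjusted p = 1.18e-06; 31.1% of genes passed), and in the 18-array fit it was lost without any of the 4 Col arrays (limma adjusted p between 0.1 and 0.14). In jaz10phyb the difference was 1.92 ± 0.64 with 18 arrays, which did not pass (limma adjusted p = 0.112; 0.0352% of genes passed). It passed with 16 arrays (1.92 ± 0.22, limma adjusted p = 4.2e-05; 18.6% of genes passed) and in a limma fit of the 4 jaz10phyb arrays alone (adjusted p = 0.000491; 14.8% of genes passed).

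In phyb as labelled IRX15-L differed by 0.5 ± 0.52 after MeJA (SE, n = 3 arrays per group; limma adjusted p = 0.962), where no gene passed (0% of genes, 198 at an unadjusted p under 0.05). With 16 arrays it differed by 1.77 ± 0.22 (n = 2 arrays per group; limma adjusted p = 9.46e-05; 16.3% of genes passed). Because the 2 arrays were doubted for their MeJA response, neither that p nor the permutation p without them, given next, is independent evidence of a response in phyb. Averaged over Col, phyb and jaz10phyb, the MeJA difference of IRX15-L was 1.71 with all arrays, positive in each of the 3 genotypes (two-sided exact permutation test within genotypes, p = 0.0222 over 720 arrangements). It was 2.13 with the 2 arrays left out (exact permutation p = 0.00926, the smallest that 216 arrangements allow).

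In jaz10, the comparison that named it, IRX15-L differed by 2.38 ± 0.64. After MeJA its mean was 332.2 ± 29.8 in Col, 348.4 ± 2 in jaz10, 278.4 ± 17.2 in jaz10phyb and 226.2 ± 45.5 in phyb with 16 arrays (SD, n = 2 arrays each). Both Col and both jaz10 arrays were above every array of the lines without phytochrome B, and how many of all genes separate so was not counted. In Control the order was Col with 50.3 ± 2.56, then phyb with 66.7 ± 20.9 (16 arrays), jaz10 with 66.9 ± 15.4 and jaz10phyb with 73.8 ± 15.6 (SD, n = 2 arrays each), and neighbours in that order overlapped. The difference in response between phyb and Col was -2.2 ± 0.82 with 18 arrays and -0.93 ± 0.31 with 16. Between jaz10phyb and jaz10 it was -0.47 ± 0.9 with 18 arrays. These differences were described and not tested.

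**Figure D3:**
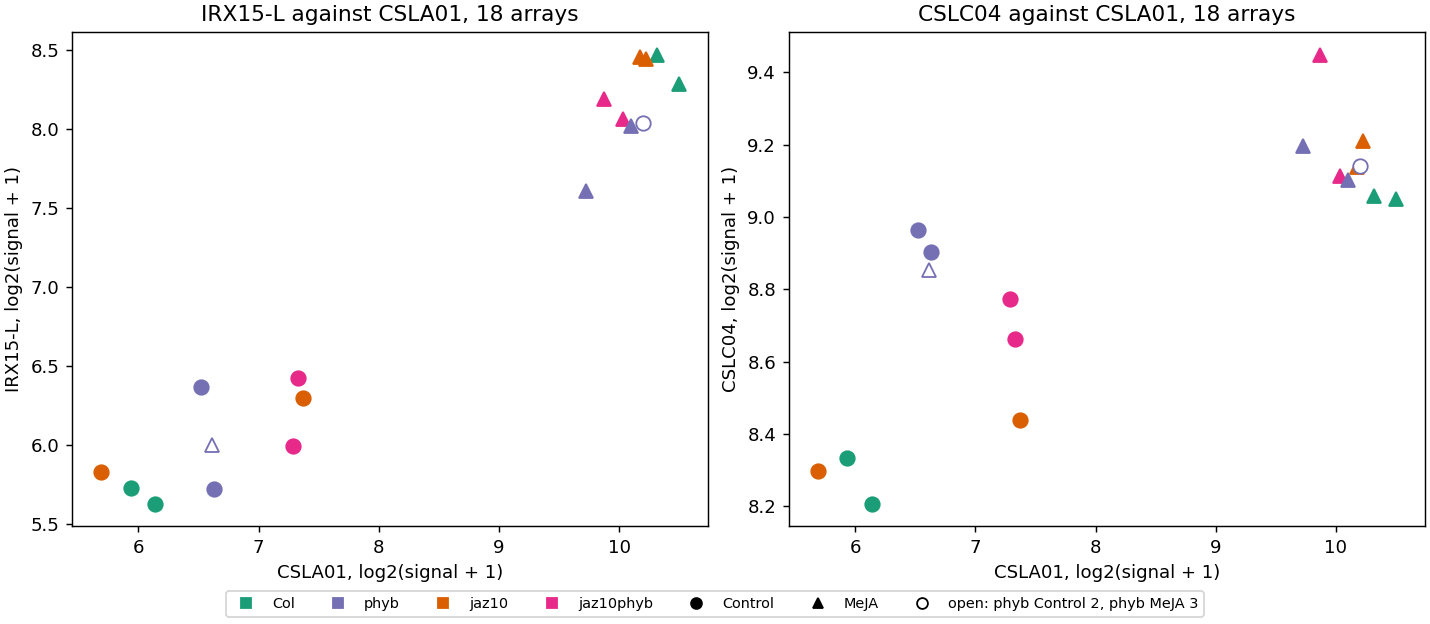
Log2(signal + 1) of IRX15-L (left) and CSLC04 (right) against CSLA01 on the 18 arrays (colour, genotype; circles, Control; triangles, MeJA; open symbols, phyb Control 2 and phyb MeJA 3). No array lies between 7.37 and 9.72 for CSLA01, the open circle sits with the MeJA arrays and the open triangle with the Control arrays, and at low CSLA01 the phyb and jaz10phyb arrays have more CSLC04 signal than Col and jaz10.

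CSLC04 had a higher Control signal in the lines without phytochrome B than in those with it. Its signal in Control arrays was 294.4 and 321.7 in Col and 313.4 and 345.6 in jaz10, but 478.1, 563.9 and 498.4 in phyb 1 to 3 and 436.6 and 404.5 in jaz10phyb. Every Control array of the lines without phytochrome B was above every Control array of the lines with it. This holds whether or not phyb Control 2 is counted. CSLA01 was also higher in the phyb and jaz10phyb Control arrays than in Col, but jaz10 Control 2 (164.7) lay above both jaz10phyb Control arrays. Whether the genes differ in their Control levels between lines was not tested. The phyb and Col Control arrays are the comparison that named CSLC04, so its separation is a description. How many of all genes separate in this way was not counted.

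After MeJA the signal of CSLC04 was 532.3 and 528.5 in Col, 562.6 and 590.7 in jaz10, and 552.4 and 697.6 in jaz10phyb. In phyb it was 548.9, 585.4 and 461.2 in MeJA arrays 1 to 3, the last being the array that lay with Control for the other genes. The MeJA arrays of the 4 genotypes overlapped once phyb MeJA 3 was set aside, apart from Col, whose values were the lowest. The span of CSLC04 over all arrays was 2.37-fold, against 28.6-fold for CSLA01 and 7.29-fold for IRX15-L.

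CSLC04 rose after MeJA in jaz10 by 0.81 ± 0.14 (SE, n = 2 arrays per group). It passed with 18 arrays (limma adjusted p = 0.0175) and with 16 (limma adjusted p = 0.000205), where 8.74% and 24.6% of all genes passed. The call with 18 arrays was lost without jaz10 Control 1, MeJA 1 or MeJA 2 (limma adjusted p between 0.127 and 0.171). In jaz10phyb the difference was 0.56 ± 0.14, which did not pass with 18 arrays (limma adjusted p = 0.0842, where 0.0352% of genes passed). It passed with 16 (limma adjusted p = 0.00421, where 18.6% of genes passed) and with the 4 jaz10phyb arrays alone (limma adjusted p = 0.0436, where 14.8% passed). Without jaz10phyb MeJA 2, which held the highest CSLC04 value, it was 0.39. The difference in response between jaz10phyb and jaz10 was -0.25 ± 0.19 with 18 arrays, with a 95% interval from -0.66 to 0.17 (limma adjusted p = 1, where 0% of genes passed, 138 of them at an unadjusted p under 0.05). An equal response and a clearly smaller response in the double mutant both lie in that interval.

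In Col the MeJA difference of CSLC04 was 0.78 ± 0.14. In phyb it was 0.05 ± 0.11 as labelled and 0.22 ± 0.12 with 16 arrays, and the difference in response between phyb and Col was -0.74 ± 0.18 with 18 arrays and -0.57 ± 0.17 with 16. These values share the Col and phyb Control arrays with the comparison that named the gene, and they were not tested. The higher Control level and the smaller MeJA difference in phyb are 2 readings of the same Control arrays.

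Loss of phytochrome B was compared in the Col and in the jaz10 background. In Control plants, the comparison that named the gene, the signal of CSLC04 in phyb exceeded that in Col by 0.73 ± 0.13 with 18 arrays and 0.66 ± 0.12 with 16 (0.475% and 1.02% of all genes passed there). In jaz10phyb against jaz10, on arrays that had no part in that choice, the Control difference was 0.35 ± 0.14 (95% interval 0.06 to 0.65), which did not pass over all genes (limma adjusted p = 0.654, and 0.253 with 16 arrays; 0.0703% and 0.58% of genes passed). After MeJA the difference was 0.11 ± 0.14 between jaz10phyb and jaz10 (95% interval -0.19 to 0.4, limma adjusted p = 0.953; 0.0527% of genes passed, and 0.791% with 16 arrays). Between phyb and Col after MeJA it was -0.0032 ± 0.13 with 18 arrays (95% interval -0.27 to 0.27, limma adjusted p = 0.992; 0.967% of genes passed) and 0.1 ± 0.12 with 16 (limma adjusted p = 0.753; 2.81% of genes passed).

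Averaged over these last 3 comparisons, which share no array with the choice of the gene, CSLC04 was higher without phytochrome B by 0.15, positive in 2 of 3 (two-sided exact permutation test within comparisons, p = 0.108 over 360 arrangements). Without phyb Control 2 and phyb MeJA 3 the mean was 0.18, positive in 3 of 3 (exact permutation p = 0.0463 over 216 arrangements). That p therefore depends on leaving out phyb MeJA 3. This array was doubted for its MeJA response and held the lowest CSLC04 signal of the phyb MeJA arrays (461.2). Leaving it out raises the mean, so the p without it is not independent evidence of a difference. The mean was 0.21 without jaz10phyb MeJA 1 alone and 0.096 without jaz10phyb MeJA 2 alone.

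For CSLA01 the Control difference between phyb and Col was 1.75 ± 1.05 with 18 arrays and 0.54 ± 0.35 with 16, and for IRX15-L it was 1.03 ± 0.58 and 0.37 ± 0.22. Between jaz10phyb and jaz10 Control, where the arrays overlapped, CSLA01 differed by 0.78 ± 1.15 with 18 arrays (± 0.35 with 16) and IRX15-L by 0.14 ± 0.64 (± 0.22 with 16). The sign of both turned when 1 array was left out, with ranges from -0.06 to 1.62 for CSLA01 and from -0.09 to 0.38 for IRX15-L. After MeJA the difference between phyb and Col was -1.59 ± 1.05 with 18 arrays and -0.5 ± 0.35 with 16 for CSLA01, and -1.17 ± 0.58 and -0.56 ± 0.22 for IRX15-L. Between jaz10phyb and jaz10 after MeJA it was -0.25 ± 1.15 for CSLA01 and -0.32 ± 0.64 for IRX15-L with 18 arrays. Between jaz10 and Col, CSLA01 differed by 0.49 ± 1.15 in Control plants and by -0.21 ± 1.15 after MeJA with 18 arrays. For CSLC04 the same differences were 0.1 ± 0.14 and 0.12 ± 0.14, and for IRX15-L 0.39 ± 0.64 and 0.07 ± 0.64. These values are a description.

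**Figure D4:**
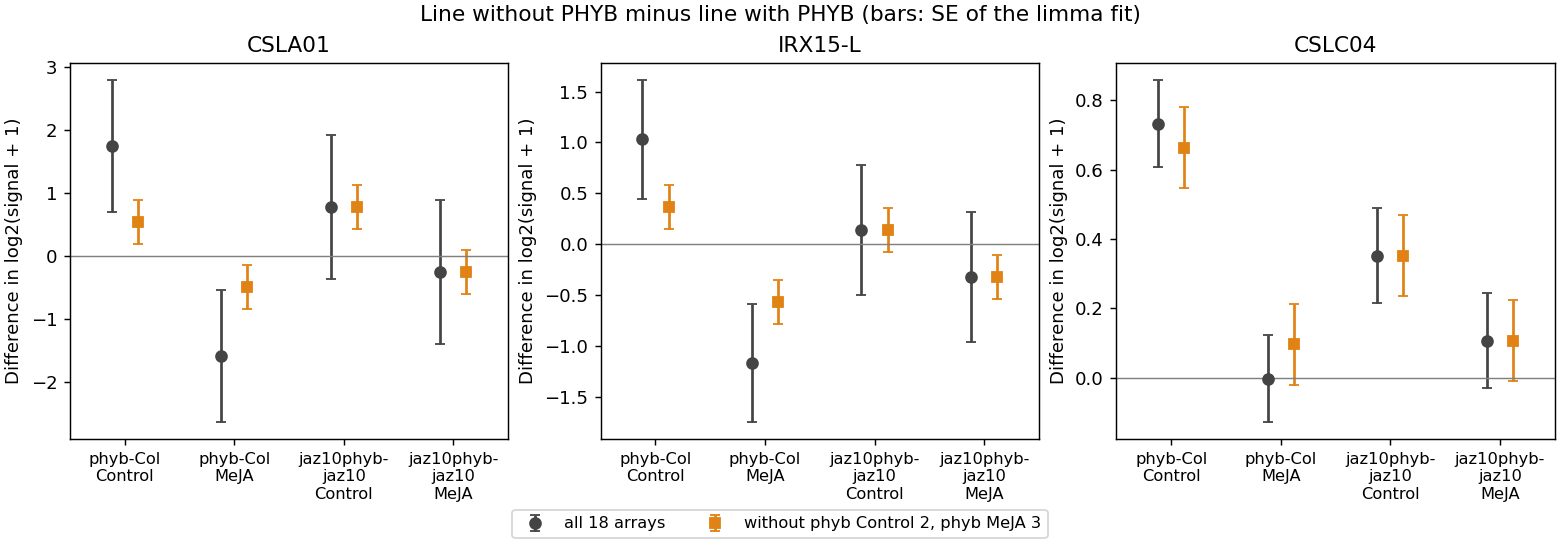
Difference in log2(signal + 1) between the line without and the line with phytochrome B for CSLA01, IRX15-L and CSLC04, in the Col background (left pair of positions) and the jaz10 background (right pair), with the SE of the limma fit as bars and axes that differ between panels (circles, all 18 arrays; squares, 16 arrays). For CSLC04 the Control differences (0.73 and 0.35 with all arrays) exceed the MeJA differences.

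Of 124 wall genes listed by polymer or function, 20 had a probe set paired with that gene alone and 11 were tested, the 3 genes above and 8 others. With 18 arrays 1 of the 8 passed for MeJA in jaz10, where 8.74% of all genes passed, and 0 in Col, phyb and jaz10phyb, where 14.7%, 0% and 0.0352% passed. A single gene of 8 is near the share of all genes in jaz10. The median difference of the 8 was 0.17 in Col, -0.06 in phyb, -0.01 in jaz10 and -0.06 in jaz10phyb, against -0.02, -0.03, -0.05 and -0.08 over all genes. The Col median includes AT2G30460 (0.59), which reached the minimum signal only through its Col MeJA arrays. That difference had to be positive, so nothing is drawn from the Col median lying above that of all genes. At the unadjusted level over all genes, 1980 passed 0.05 in Col, 198 in phyb, 1652 in jaz10 and 1319 in jaz10phyb. With 16 arrays CSLC5 passed in each genotype, where 31.1%, 16.3%, 24.6% and 18.6% of all genes passed in Col, phyb, jaz10 and jaz10phyb. Its phyb call comes after leaving out the arrays doubted for their MeJA response, so it is not independent evidence. AT2G30460 passed as well in Col, but it was in the fit only through its Col MeJA arrays, so that call is not counted. No listed gene was called lower after MeJA in either fit (limma). The share of all genes called lower was not worked out, so nothing is drawn from this.

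CSLC5, a relative of CSLC04 in the xyloglucan list, was the gene that passed in jaz10 with 18 arrays and in all 4 genotypes with 16. Its signal was 146.1 and 137.1 in Col Control, 195.6 and 206 in Col MeJA, 127.9 and 139 in jaz10 Control and 224.1 and 194.3 in jaz10 MeJA. Its MeJA difference was 0.64 ± 0.18 in jaz10 with 18 arrays (limma adjusted p = 0.0455). With 16 arrays it was 0.5 ± 0.12 in Col, 0.39 ± 0.12 in phyb and 0.53 ± 0.12 in jaz10phyb (limma adjusted p = 0.00773, 0.0456 and 0.00782). In phyb as labelled it was 0.1 ± 0.15 with 18 arrays (limma adjusted p = 0.965). Because the 2 arrays left out were doubted for their MeJA response, the 16-array phyb p of CSLC5 is not independent evidence. Its phyb Control arrays 1 to 3 had 152.7, 217.9 and 161.7, a difference from Col Control of 0.31 ± 0.17 with 18 arrays (limma adjusted p = 0.464) and 0.15 ± 0.12 with 16 (limma adjusted p = 0.706). Whether that difference was smaller than that of CSLC04 was not tested.

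CSLC6, another gene of the CSLC family, had MeJA differences between -0.03 and 0.26 and passed in no genotype in either fit. For xylan, GUT2 and GUT1, glycosyltransferases of the xylan backbone also known as IRX10 and IRX10-L, had differences between -0.2 and -0.01 and between -0.29 and 0.04 with 18 arrays, none of which passed. CSLD2, a cellulose synthase-like gene of the CSLD family placed in the mannan list, did not pass. With 18 arrays it differed by 0.41 ± 0.17 in jaz10phyb, 0.34 ± 0.17 in Col, 0.02 ± 0.17 in jaz10 and -0.13 ± 0.14 in phyb. COB, a membrane-anchored protein for oriented cellulose deposition, differed by 0.01 to 0.21 and did not pass.

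In the list for nucleotide sugars, AT2G30460 had a signal of 53.1 and 61 on the Col MeJA arrays and between 30.1 and 49.4 on all other arrays. It reached the minimum of 50 only through the Col MeJA arrays, so its differences between that group and others had to be of one sign and are given with no test. They were 0.59 between Col MeJA and Col Control, and -0.62 with 18 arrays and -0.74 with 16 between phyb and Col after MeJA. AT1G06890 differed by -0.11 to -0.04 after MeJA with 18 arrays and did not pass.

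**Figure D5:**
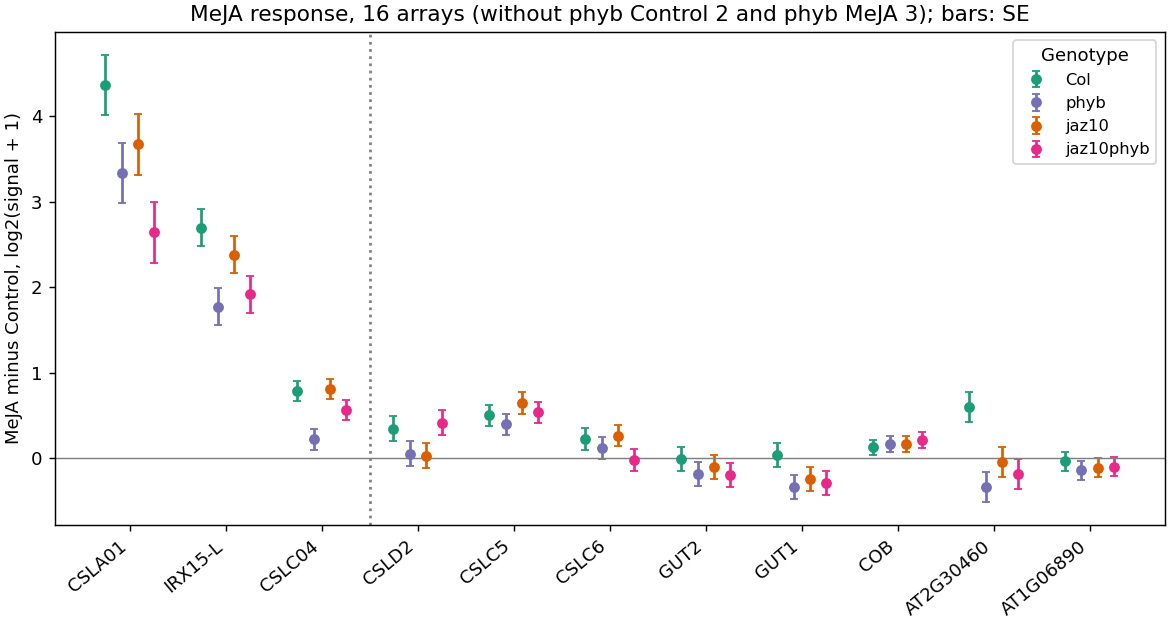
MeJA minus Control in log2(signal + 1) with the SE of the limma fit for CSLA01, IRX15-L and CSLC04 (left of the dotted line) and the 8 other wall genes tested, by genotype, without phyb Control 2 and phyb MeJA 3. CSLA01 and IRX15-L lie between 1.77 and 4.37, CSLC04 between 0.22 and 0.81, and the other 8 genes between -0.35 and 0.64, a range that overlaps that of CSLC04.

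Genes whose values ran most like those of each gene were found by Pearson's r of log2(signal + 1) over the 18 arrays, which is a description, since the arrays share the treatment contrast. For CSLA01 the nearest genes with a symbol were TBL26 (r = 0.988), MSRB6 (0.983) and TBL37 (0.981), with r of 0.988, 0.981 and 0.979 over the 16 arrays. TBL genes encode a family that includes wall polysaccharide acetyltransferases, and MSRB genes encode methionine sulfoxide reductases. The nearest without a symbol in the annotation used here were AT5G05600 (0.988) and AT2G34930 (0.987).

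For IRX15-L the nearest genes were FLR1 (r = 0.992), the ligase gene 4CL8 (0.985) and MSRB9 (0.984), and, without a symbol, AT5G05600 (0.988) and AT1G19680 (0.988). AT5G05600 was thus near both CSLA01 and IRX15-L. For CSLC04 the values of r were lower and the genes were others, namely GTR2, a glucosinolate transporter gene (0.922), AR781 (0.897) and GH9B8, a gene of the glycosyl hydrolase family that holds plant cellulases (0.896), with r of 0.932, 0.896 and 0.923 over the 16 arrays. Without a symbol they were AT1G52000 (0.942) and AT3G28220 (0.924).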

How the data were processed

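Affymetrix Expression Console is the program named in the submitters' processing notes, and the deposited values are array signal intensity per probe set, not log-transformed. How probes were summarised, the program's version and the genome build were not stated in the labels or files. Of 38408 probe sets, a platform annotation paired 16722 with 1 gene, 759 with several and 20927 with none. Of these genes' probe sets, 16574 were matched to RefSeq names (TAIR10.1). Groups and replicate numbers came from the sample titles.

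Genes with a signal of at least 50 on any array were kept, with the probe set of the highest mean for each gene, and limma 3.58.1 (R 4.3.3) was fitted to log2(signal + 1) with a mean for each of 8 groups, as planned for a linear table (10 residual degrees of freedom, 8 without the 2 doubted arrays). limma was tested on simulated data. The number of arrays limits the precision. The genes, lists and tests were chosen with earlier results of these data known. Genes named are the 3 genes, every listed wall gene that was tested, and for each of the 3 the nearest 3 genes with and 2 without a symbol. Alternatives were other filters, pseudocounts, scalings and eBayes settings, all probe sets, a replicate block, fits of the compared groups alone, and arrays left out.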

Additional observations from a re-analysis of the deposited data

How the results depend on the processing

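Apart from the replicate block and arrays left out, 128 of 134 recomputed values over 21 results kept their direction and side of the threshold, or for counts and untested values moved little. Fits of the compared groups alone moved CSLA01 in jaz10 (3.67), IRX15-L in jaz10phyb (1.92) and CSLC04 in jaz10phyb (0.56) past it. The SE was smaller there for the first and second of these and larger for CSLC04 (0.146 against 0.137). CSLC04 between phyb and Col after MeJA, near 0 in the main analysis, was 0.11 with array median centring and 0.037 with quantile normalization, and with no filter 0 listed wall genes passed in jaz10. Without phyb Control 2 and phyb MeJA 3, CSLA01 in phyb was 3.33, IRX15-L in phyb 1.77 and CSLC04 between phyb and Col after MeJA 0.1, and the mean CSLC04 difference with loss of phytochrome B was 0.18. In that setting CSLA01 in jaz10 (3.67), IRX15-L in jaz10phyb (1.92) and CSLC04 in jaz10phyb (0.56) passed, and 2, 1 and 1 listed wall genes passed in Col (AT2G30460 among them), phyb and jaz10phyb. With the replicate block CSLA01 in jaz10 (3.67, limma adjusted p = 0.0118), CSLC04 in jaz10phyb (0.56, limma adjusted p = 0.0261) and IRX15-L in jaz10phyb (1.92, limma adjusted p = 0.0468) passed, and CSLC04 between phyb and Col after MeJA was 0.056. Deviations of same-numbered arrays correlated over 0.1 in 11 of 57 pairs and by -0.721 to 0.602. Both extremes came from phyb Control against phyb MeJA, the groups that hold the 2 doubted arrays. Between groups of 2 arrays the same r is listed for both replicate numbers, so the 57 pairs are not separate checks. Whether the replicate numbers pair the samples was not tested. Leaving out 1 array at a time, in both fits, gave CSLA01 in phyb 0.38 to 3.52 and in jaz10 2.83 to 4.51. It gave IRX15-L in Col 2.61 to 2.79, in phyb 0.0080 to 2.09 and in jaz10phyb 1.7 to 2.13, and CSLC04 in jaz10 0.74 to 0.88 and in jaz10phyb 0.39 to 0.73. CSLC04 with loss of phytochrome B was -0.076 to 0.14 after MeJA in the Col background and -0.061 to 0.27 after MeJA in the jaz10 background. Its average over the 3 comparisons was 0.096 to 0.21, with arrays left out 1 at a time from the 18 only. The cause of these changes was not tested.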

Other observations

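Of the 20 listed wall genes with a probe set, 9 never reached a signal of 50 and were not tested. Among them the mannan gene CSLA03 lay between 12.6 and 22 on the 18 arrays, CSLC12 reached 15.1, ATCSLC08 reached 35.1, and the xyloglucan remodelling genes XTH18, XTH19 and XTH33 reached 10.8, 6.64 and 7.47.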
